A study of Sus scrofa with 20 samples.

Results

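The solute carrier (SLC) transporters of pig caecal mucosa were described across 20 pigs that differed in feed efficiency (FE), litter and sex. Members were all genes whose symbol in the array's platform annotation starts with SLC, a family number and A, with 4 carriers of short-chain fatty acids, chloride and sodium left out by the rule (SLC16A1, SLC5A8, SLC26A3 and SLC9A3). They came to 194 genes, read by 310 probesets, of 10638 genes named by the annotation and 25092 probesets with values. Each gene was followed through its probeset with the highest mean signal, and 115 of the 194 genes had a single probeset. The rule also takes in 5 symbols that belong to regulators or neighbours of carriers and not to carriers themselves (SLC9A3R1, SLC9A3R2, SLC7A6OS, SLC2A4RG and SLC4A1AP), and these form a class of their own.

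The pigs were a Large White x Landrace cross, reared as intact litters in pens and classified within litter and sex by residual feed intake, the part of feed intake not accounted for by growth and body composition, some days before slaughter near the end of the growing period. High FE pigs had a low residual feed intake (n = 10), and low FE pigs had a high residual feed intake (n = 10). Each of 5 sows (1406, 1410, 1411, 1417 and 1435) gave 4 pigs, with 1 male and 1 female in each FE group, so that sow also stood for pen. All pigs had the same free access to feed and water, none carried a genetic modification, and mucosa scraped from the tip of the caecum was hybridised to 1 porcine Affymetrix array per pig. The slaughter batch was not analysed here.

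Solute carriers move amino acids, sugars, ions, metals, vitamins and metabolites across cell and organelle membranes, either down a gradient or coupled to sodium or protons. In the intestine, carriers of the brush border take nutrients out of the lumen and carriers of the basolateral side pass them to the blood. The caecum receives what the small intestine has not absorbed, and its epithelium is known mainly for the uptake of fermentation acids, salt and water, whereas most sugar and amino acid uptake takes place further up. Other solute carriers sit in mitochondria, lysosomes, the Golgi and secretory vesicles and serve every cell of the tissue.

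Correlations between any pair of arrays were 0.942 to 0.974. Upper quartiles were 6.25 to 6.30, which quantile normalisation makes nearly equal whatever the quality of the arrays. The first principal component held 17.2% of the variance and followed the pigs' identification numbers (r = 0.870, n = 20, a description), and litter accounted for 82.9% of the variance of these numbers. The 7 measured mature colonocyte markers ranged from 4.86 (AQP8) to 12.06 (KRT20), with VIL1 at 9.96 and CDX2 at 9.30. Fibroblast and matrix markers ranged from 5.17 to 8.97, T and NK cell markers from 6.32 to 8.50 and B cell markers from 6.94 to 7.94. Erythrocyte markers ranged from 3.24 to 5.65. All values are log2 signals, where a difference of 1 is a doubling.

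The members' signal spanned the range of the array. Their median was 5.16, against 4.77 for all probesets, 110 of the 194 members lay above that array median and 27 were among the brightest 10%. A probeset's signal depends on the affinity of its probes as well as on the transcript, so brightness places a gene among measured signals and gives no order of transcript amounts. Among 165 pairs of probesets of the same member the median correlation across pigs was 0.28, against 0.01 for 10000 random pairs of probesets, so probesets of 1 gene often tracked each other weakly.

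The 27 mitochondrial carriers had 21 members above the array median and 5 in the brightest 10%. They were led by the mitochondrial phosphate carrier SLC25A3 (11.31 ± 0.16, SD over 20 pigs) and the ADP/ATP exchanger SLC25A5 (10.48 ± 0.15). Of 26 metal carriers 19 lay above the array median, led by the copper importer SLC31A1 (9.98 ± 0.19) and the zinc, iron and manganese carrier SLC39A14 (9.28 ± 0.22). Of 4 carriers of organic osmolytes, choline and creatine 3 were in the brightest 10%, among them the creatine carrier SLC6A8 (9.26 ± 0.20) and the choline carrier SLC44A1 (9.26 ± 0.30). Of 21 sugar carriers and their relatives 12 were above the array median, with the glucose carrier SLC2A1 at 8.87 ± 0.28 and SLC37A3 at 8.41 ± 0.17.

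Amino acid and peptide carriers formed the largest class, with 31 members, of which 16 lay above the array median and 1 was in the brightest 10%. This was SLC7A7 (7.68 ± 0.16), a basolateral light chain for cationic and neutral amino acids, followed by its heavy chain SLC3A2 (7.48 ± 0.25), the partner that brings several light chains to the membrane. Of 15 carriers of sodium, protons, potassium or calcium 6 were above the array median, led by the sodium/proton exchanger SLC9A2 (7.94 ± 0.39) and the potassium chloride cotransporter SLC12A7 (7.56 ± 0.23). Of 14 carriers of bicarbonate, chloride and other anions 4 were above the array median, with the sodium bicarbonate cotransporter SLC4A4 at 9.51 ± 0.33 and SLC26A11 at 5.73 ± 0.19 as the brightest.

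Of 12 carriers of bile acids, organic ions and fatty acids 3 lay above the array median, with SLC22A17, a receptor-like member of the organic cation family, at 8.22 ± 0.25 and the fatty acid transport protein SLC27A4 at 6.98 ± 0.27. Of 12 carriers of monocarboxylates, dicarboxylates or urea 4 did so, with the urea channel SLC14A1 at 7.0 ± 1.1 and the lactate carrier SLC16A3 at 5.38 ± 0.29. Of 8 neurotransmitter and vesicle carriers 5 lay above the array median, the brightest being the glycine carrier SLC6A9 (7.56 ± 0.35) and the lysosomal sialic acid carrier SLC17A5 (6.97 ± 0.29). Of 6 nucleoside carriers 4 did so, led by SLC29A1 (7.60 ± 0.28) and SLC43A3 (5.80 ± 0.24).

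Among 6 vitamin carriers the reduced folate carrier SLC19A1 stood at 6.83 ± 0.14 and the biotin and pantothenate carrier SLC5A6 at 6.72 ± 0.35. The phosphate carrier SLC20A2 stood at 7.45 ± 0.37 and SLC34A3 at 4.37 ± 0.26. Both nucleotide sugar family members were above the array median, SLC35A5 at 7.26 ± 0.30 and the CMP-sialic acid carrier SLC35A1 at 5.81 ± 0.53, as was SLC16A10, a carrier of thyroid hormone and aromatic amino acids (5.47 ± 0.26). The scaffold proteins SLC9A3R2 (9.31 ± 0.28) and SLC9A3R1 (8.38 ± 0.36) were the brightest of the 5 genes that are not carriers. Below the lower filter bound of 1.62 were 4 members, the vitamin C carrier SLC23A2, the glucose carrier SLC2A2, SLC30A6 and SLC38A11.

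**Figure D1:**
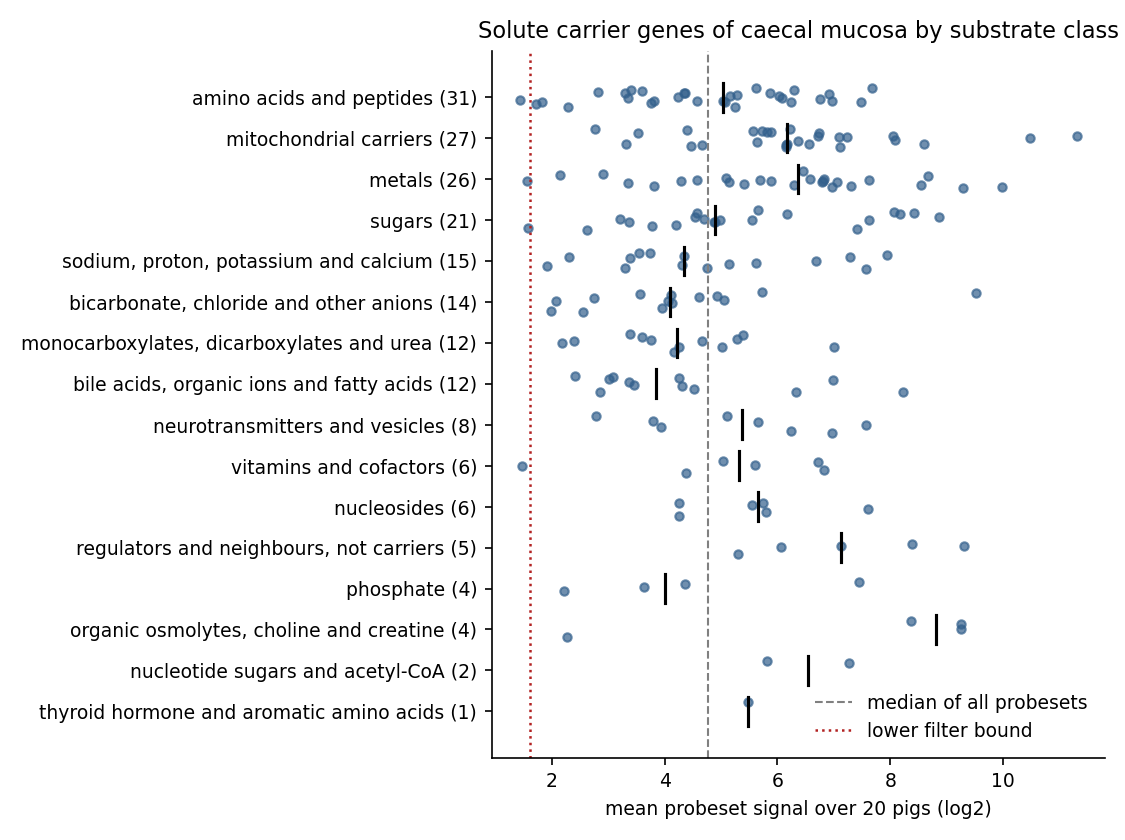
Mean probeset signal over 20 pigs (x axis, log2) of 194 solute carrier genes, 1 point per gene, by substrate class (y axis, number of genes in brackets), with the class median as a black bar, the median of all probesets (4.77) dashed and the lower filter bound (1.62) dotted. Mitochondrial and metal carriers lie mostly right of the dashed line, and 10 of 14 anion carriers lie left of it, SLC4A4 being the brightest of that class at 9.51.

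The variation of the members between pigs was close to that of the array as a whole. Their median SD over the 20 pigs was 0.285, against 0.296 over all probesets, and the median share of variance between litters was 26.6% for the 190 members above the filter bound, against 27.4% for all probesets above it. The largest SD left within litters was that of SLC2A6, a lysosomal member of the glucose carrier family, at 1.44, with pigs between 0.94 and 5.79. It was followed by the carnitine carrier SLC22A16 (0.95, pigs between 1.22 and 4.39), the anion exchanger SLC26A7 (0.93, 0.80 to 4.16) and SLC16A5 (0.93, 0.49 to 3.89). The glutamine carrier SLC38A5 (0.92, 3.55 to 6.24) and the urea channel SLC14A1 (0.91, 4.33 to 8.83) completed the 6 most variable. Of these 6, only SLC38A5 and SLC14A1 were above the filter bound of 1.62 in every pig.

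High and low FE pigs were compared to ask whether the caecal carriers of nutrients, ions and metabolites differ with feed efficiency. No member differed between high and low FE pigs at an adjusted p under 0.05 in limma, with 186 members tested among 23140 probesets, of which 0 (0%) were called. At an unadjusted p under 0.05, 7 of the 186 members were called (3.76%), against 4.48% of all probesets. Of these, 6 had a higher mean in high FE pigs (3.23%, against 2.54% of all probesets) and 1 a lower mean (0.538%, against 1.94%). This count moved with the model, being 13 with the pair of littermates of the same sex as a block and 15 without the litter of sow 1435, and the adjusted count was 0 in both. The median difference was -0.00 over the members and 0.00 over all probesets, and 93 of the 186 members had a mean above that of low FE pigs (50%, against 51.1% of all probesets).

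The smallest p belonged to SLC3A2 (chromosome 2, 8892071 to 8919070, Sscrofa11.1), the heavy chain of the amino acid exchangers also known as CD98. High FE pigs stood at 7.35, 7.37, 7.48, 7.56, 7.57, 7.64, 7.70, 7.74, 7.88 and 7.90, and low FE pigs at 6.94, 7.16, 7.22, 7.25, 7.28, 7.38, 7.44, 7.47, 7.50 and 7.74. The high FE pig was above its low FE littermate of the same sex in 10 of 10 pairs, although the ranges of both groups overlapped. The log2 difference was 0.28 ± 0.09 (SE, n = 10 each), a fold of 1.22 (unadjusted p = 0.00815, adjusted p = 0.980, limma). The other probesets of SLC3A2 gave log2 differences of 0.15 and -0.15, and the mean over its 3 probesets gave 0.09 (unadjusted p = 0.303, limma). Among its light chains, SLC7A7 had a log2 difference of 0.05 and SLC7A8 of 0.14, with unadjusted p-values of 0.559 and 0.346.

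Other members, 5 in all, had higher means in high FE pigs at an unadjusted p under 0.05. The zinc and manganese importer SLC39A8 averaged 3.51 ± 0.28 in high FE pigs and 3.17 ± 0.30 in low FE pigs (SD, n = 10 each), a log2 difference of 0.34 ± 0.12 (SE), with the high FE pig above its littermate in 9 of 10 pairs. High FE pigs ranged between 3.13 and 3.95 and low FE pigs between 2.58 and 3.63, so that the groups overlapped. SLC10A4, an orphan member of the bile acid carrier family found in synaptic vesicles, averaged 4.41 ± 0.31 in high FE and 4.11 ± 0.16 in low FE pigs, and the high FE pig was above in 7 of 10 pairs. The carnitine carrier SLC22A16 had the widest difference of the tested members, 0.80 ± 0.35, but was dim, with means of 2.82 ± 0.86 in high FE and 2.02 ± 0.68 in low FE pigs.

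The citrate and dicarboxylate carrier SLC13A2, which is coupled to sodium, averaged 4.82 ± 0.29 in high FE and 4.52 ± 0.34 in low FE pigs. The potassium chloride cotransporter SLC12A7 averaged 7.67 ± 0.20 in high FE and 7.45 ± 0.21 in low FE pigs, with the high FE pig above in 9 of 10 pairs. Just outside were the mitochondrial S-adenosylmethionine carrier SLC25A26 (log2 difference 0.19 ± 0.09, 9 of 10 pairs) and the mitochondrial family member SLC25A35 (0.25 ± 0.12, 8 of 10 pairs). A dimmer probeset of SLC25A26 gave a log2 difference of -0.04. Unadjusted p-values of these 8 members lay between 0.00815 and 0.0521, and each adjusted p was 0.980.

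On the lower side, SLC35A5, a Golgi member of the nucleotide sugar carrier family, was the only member with an unadjusted p under 0.05 (p = 0.0332, adjusted p = 0.980, limma). Its signal averaged 7.14 ± 0.24 in high FE pigs and 7.39 ± 0.32 in low FE pigs (SD, n = 10 each), a log2 difference of -0.25 ± 0.11 (SE), and the high FE pig was above its littermate in 3 of 10 pairs. Next by p came SLC6A14, a sodium and chloride driven carrier of neutral and cationic amino acids, at -0.29 ± 0.14, and the insulin-responsive glucose carrier SLC2A4, at -0.21 ± 0.11. They were followed by the sialic acid carrier SLC17A5 (-0.20 ± 0.10) and SLC3A1, the heavy chain of the cystine exchanger (-0.18 ± 0.10). None of these 4 reached an unadjusted p of 0.05. Other probesets gave log2 differences of -0.15 for SLC6A14, and of 0.18 and -0.04 for SLC2A4.

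The glutamate and aspartate carrier SLC1A1 had the widest mean difference among these lower members, -0.55 ± 0.32 (SE), with 4.08 ± 0.65 in high FE and 4.62 ± 0.90 in low FE pigs (SD, n = 10 each). The high FE pig was above its littermate in 1 of 10 pairs, yet the test did not pass at the unadjusted level (p = 0.109, limma), and 1 low FE pig stood at 6.69 while the others lay between 3.75 and 5.41. SLC16A4, of the monocarboxylate carrier family, and the glutamine carrier SLC38A1 closed the list with -0.18 ± 0.11 and -0.27 ± 0.18. Other probesets of SLC38A1 gave log2 differences of -0.07 and 0.17. In all, the 16 members with the smallest p-values in either direction had folds of 1.13 to 1.74.

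**Figure D2:**
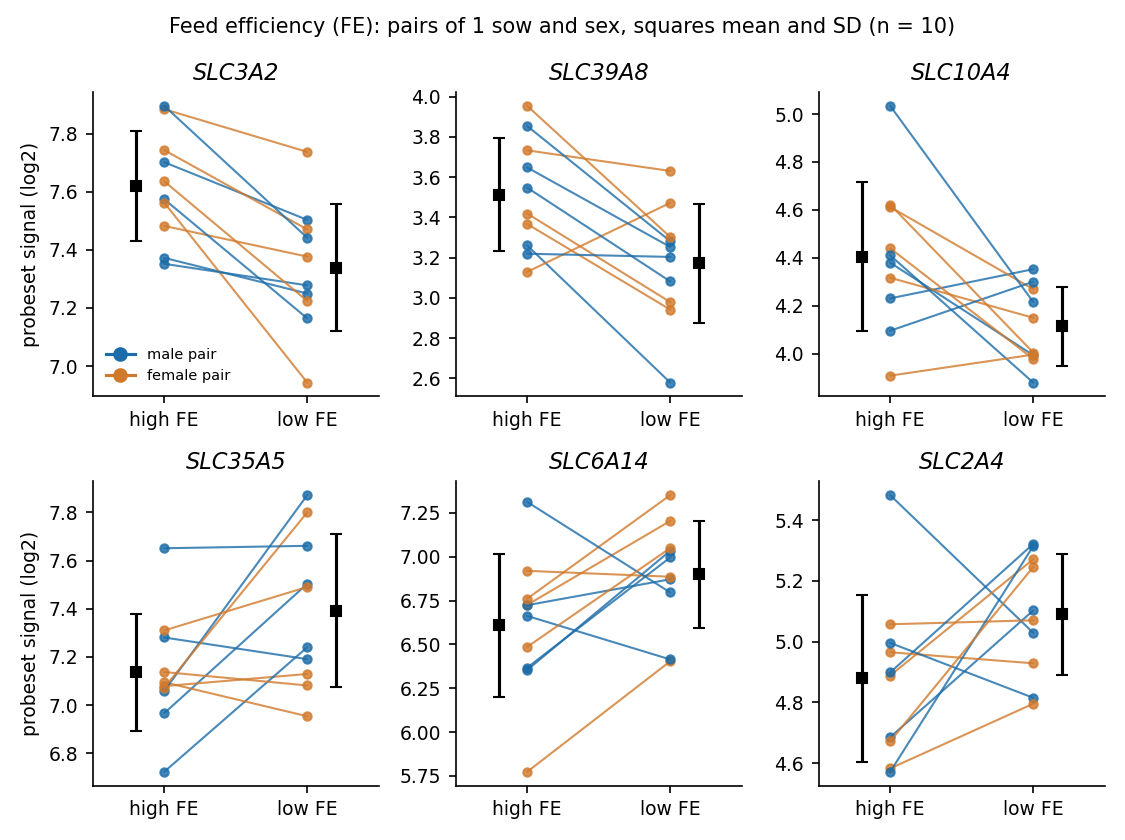
Probeset signal (y axis, log2) in high FE and low FE pigs (x axis) for the 3 members with the smallest p in each direction; lines join littermates of the same sex (10 pairs), and squares give the group mean and SD (n = 10). For SLC3A2 all 10 lines run downward from high FE to low FE, for SLC39A8 9 of 10 do so, and for SLC35A5 3 of 10 do so.

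By substrate class, no class stood out in the feed efficiency comparison. Of the 29 tested amino acid and peptide carriers 11 had higher means in high FE pigs, of 27 mitochondrial carriers 16, of 25 metal carriers 12 and of 18 sugar carriers 8. Carriers of bile acids, organic ions and fatty acids had 8 of 12 higher means and a class median of 0.07, the class with 2 of the members called at the unadjusted level (SLC10A4 and SLC22A16). Members called at that level were otherwise spread 1 to a class.

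The design set limits on what could be seen for each gene. The 95% confidence interval of the difference lay wholly within 0.5 log2 units of 0 for 152 of the 186 tested members and within 1 log2 unit for 182. The intestinal carriers fixed by role show this for known functions, 35 of the 51 listed being measured. The apical sodium glucose cotransporter SLC5A1 had a log2 difference of 0.16 (95% confidence interval -0.05 to 0.36), the glucose carrier SLC2A1 one of -0.01 (-0.29 to 0.26) and the peptide carrier SLC15A1 one of -0.20 (-0.65 to 0.25). For the light chain SLC7A7 it was 0.05 (-0.13 to 0.23), for the bicarbonate cotransporter SLC4A4 -0.06 (-0.33 to 0.21) and for the sodium/proton exchanger SLC9A2 -0.20 (-0.50 to 0.11). The widest intervals among these carriers were those of the dim SLC16A5 (0.65, -0.09 to 1.39) and of SLC1A1 (-0.55, -1.23 to 0.14). Of the 32 tested carriers of this list 0 passed the adjusted test, and 2 had an unadjusted p under 0.05 (SLC3A2 and SLC12A7), against 4.48% of all probesets.

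**Figure D3:**
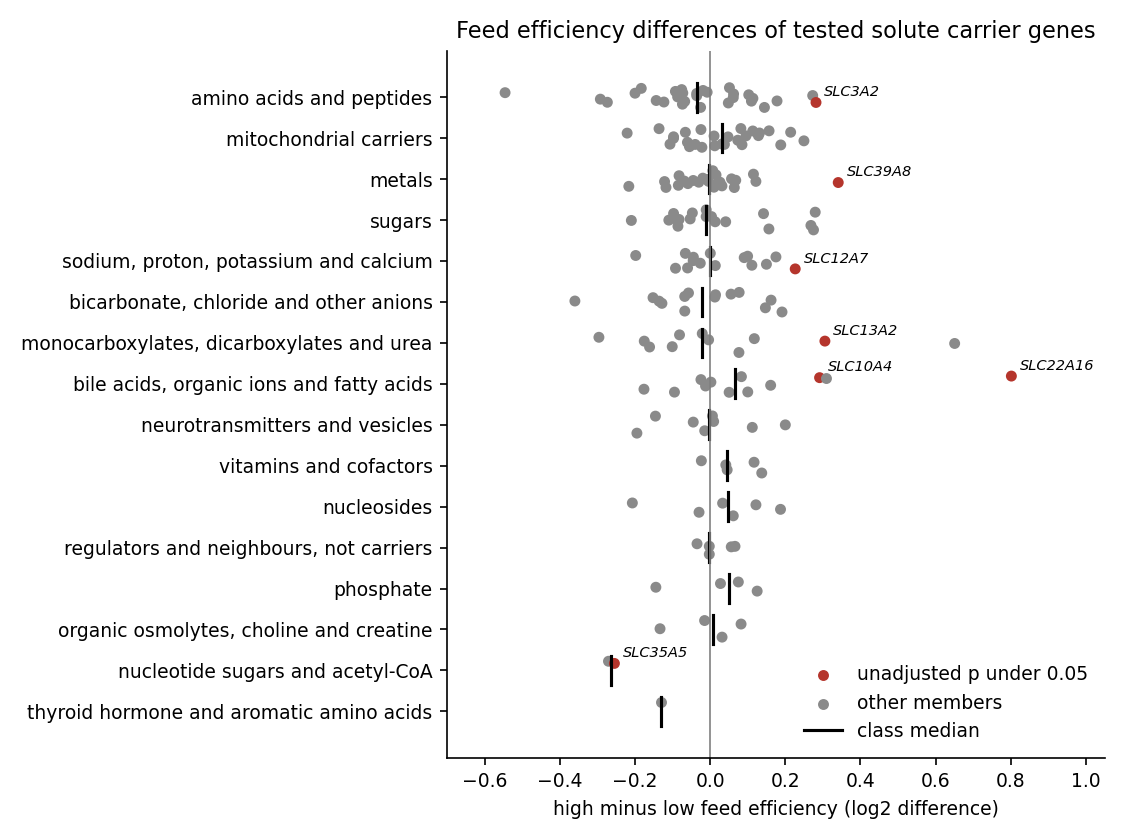
High minus low FE log2 difference (x axis) of 186 tested solute carrier genes, 1 point per gene, by substrate class (y axis), with class medians as black bars and the 7 members at an unadjusted p under 0.05 in red. Points of every larger class lie on both sides of 0, and SLC22A16 lies farthest from it at 0.80.

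The filter on SD had removed 4 members from this comparison for their wide spread within both FE groups. Without that filter, SLC14A1 had a log2 difference of -0.50 ± 0.36 (SE) and the fructose carrier SLC2A5 one of -0.05 ± 0.32. For SLC2A6 it was 0.10 ± 0.60 and for SLC38A5 -0.19 ± 0.38, with adjusted p-values of at least 0.983 (limma).

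Among marker genes of the cell types in the mucosa, 2 of 4 tested macrophage and dendritic cell markers, 2 of 3 mast cell markers, 2 of 7 T and NK cell markers and 1 of 6 fibroblast and matrix markers had higher means in high FE pigs at an unadjusted p under 0.05, against 2.54% of all probesets. Lower means at that level were seen for 1 of 4 B cell markers (PAX5, log2 difference -0.36) and 1 of 6 mature colonocyte markers (TMIGD1, -0.34), against 1.94% of all probesets. The other B cell markers went both ways, with log2 differences of 0.15 for CD79A, 0.02 for CD79B and -0.16 for MS4A1. The mast cell markers called were FCER1A (mean 2.49) and HDC (4.05), whereas the brighter KIT (7.50) had a log2 difference of -0.02. Summed levels of these marker lists overlapped between groups. For macrophage and dendritic cell markers they were 7.66 to 8.31 in high FE and 7.50 to 8.25 in low FE pigs. For T and NK cell markers they were 9.93 to 10.80 in high FE and 9.80 to 10.60 in low FE pigs. Mast cell markers had sums of 7.06 to 8.33 in high FE and 6.81 to 8.49 in low FE pigs. B cell markers had sums of 9.02 to 10.22 in high FE and 8.51 to 10.79 in low FE pigs. Summed levels of the 7 measured mature colonocyte markers were 12.76 to 13.05 in high FE and 12.76 to 13.23 in low FE pigs. Their part in the carriers' values was not tested, and in scraped mucosa fewer cells of a type and less RNA per cell cannot be told apart.

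Differences between litters were examined next, since all 5 litters held the same composition of FE group and sex. No member passed the adjusted threshold in the F test over sows (limma, 190 members tested), against 30 of 23837 probesets (0.126%). At the unadjusted level 25 of the 190 members were called (13.2%), against 16.1% of all probesets, so the share was near that of the array. Mitochondrial and metal carriers held 5 each of these 25, sugar carriers 4, and amino acid carriers 2 of 30 tested.

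The smallest p belonged to the fructose carrier SLC2A5 (chromosome 6, 69507829 to 69535794), with 67.0% of its variance between litters (unadjusted p = 0.000528, adjusted p = 0.0984, limma). The pigs of sow 1406 stood at 3.57, 3.62, 4.30 and 5.94, those of sow 1410 at 5.96, 6.13, 6.25 and 6.69, and those of sow 1411 at 5.53, 6.72, 7.03 and 7.41. Litter 1417 stood at 6.03, 6.29, 6.89 and 7.16 and litter 1435 at 6.37, 6.45, 7.08 and 8.10. The 3 lowest pigs of sow 1406 were therefore below every other pig, and the fourth, a high FE female, lay within the range of the other litters. Litter means ran between 4.36 ± 1.11 and 7.0 ± 0.80 (SD, n = 4 each), a 6.25-fold range, and the second probeset of SLC2A5 followed the first with r = 0.94 across pigs. Without litter 1406 the unadjusted p was 0.384 (limma), and without that high FE female the adjusted p over all probesets was 0.0411.

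The sodium glucose cotransporter SLC5A1 (chromosome 14, 48566400 to 48704145) was highest in litter 1410, at 7.64, 7.77, 7.83 and 8.13. It was lowest in litter 1435, at 6.72, 7.07, 7.14 and 7.23. These extreme litters did not overlap, whereas the means of litters 1406 (7.51 ± 0.29), 1417 (7.38 ± 0.19) and 1411 (7.25 ± 0.13) lay between them within their spread (SD, n = 4 each). Litter accounted for 67.4% of the variance (adjusted p = 0.115, limma), and without litter 1410 the unadjusted p was 0.0582. The 3 brightest of its 4 probesets each had an unadjusted litter p of 0.00120 or less, and the dimmest, which did not follow the others (r = -0.04), had 0.686.

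SLC39A7, which releases zinc from the endoplasmic reticulum, had the largest share of variance between litters among the 12 members with the smallest p, 78.5% (chromosome 7, 25242862 to 25247407, adjusted p = 0.100, limma). Litter 1406 stood at 8.80, 8.95, 9.0 and 9.13 and litter 1435 at 8.37, 8.42, 8.43 and 8.57, with no overlap and a 1.44-fold range between means. SLC39A7 had 4 other probesets, with unadjusted litter p-values of 0.0465, 0.0809, 0.345 and 0.804 (limma), so that 1 of them was under 0.05. SLC25A27, a mitochondrial uncoupling protein family member, ran between 5.72 ± 0.05 in litter 1411 and 6.63 ± 0.21 in litter 1410 (SD, n = 4 each, adjusted p = 0.106, limma).

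The urea channel SLC14A1 (chromosome 1, 95354848 to 95381492), which equilibrates urea across membranes, had the widest litter range of the 12 named members after SLC2A5, 4.73-fold. Pigs of sow 1406 stood at 7.23, 8.32, 8.60 and 8.83, and those of sow 1435 at 4.33, 5.33, 7.05 and 7.29. In litter 1435 both low values belonged to males, and the spread within that litter was the widest (mean 6.0 ± 1.41, SD, n = 4, against 8.24 ± 0.71 in litter 1406). The adjusted p was 0.136 (limma), and without litter 1406 the unadjusted p was 0.101. A dimmer probeset of SLC14A1 had an unadjusted litter p of 0.0543 (limma).

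Several mitochondrial carriers were among the 12 members with the smallest litter p. The citrate carrier SLC25A1 averaged 7.50 in litter 1411 and 6.81 in litter 1435, the oxoglutarate/malate exchanger SLC25A11 8.34 in litter 1406 and 7.55 in litter 1435, and the ATP-magnesium/phosphate carrier SLC25A24 8.84 in litter 1435 and 8.20 in litter 1411. Each of these rested on its extreme litter, with unadjusted p-values of 0.207 and 0.184 without litter 1435 for SLC25A1 and SLC25A11, and of 0.232 without litter 1411 for SLC25A24 (limma). The amino acid carrier family member SLC38A6 was lowest in litter 1406 (4.78) and had an unadjusted p of 0.413 without it. A dimmer probeset of SLC38A6 had an unadjusted litter p of 0.318 (r = 0.15 with the first, limma). That of SLC25A24 had 0.0157 (r = 0.84).

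The monocarboxylate carrier SLC16A13 averaged 5.23 in litter 1411 and 4.77 in litter 1417, and the choline carrier SLC44A1 9.47 in litter 1435 and 8.98 in litter 1411. The apical bile acid carrier SLC10A2, best known from the ileum, averaged 4.98 ± 0.53 in litter 1417 and 3.96 ± 0.60 in litter 1406 (SD, n = 4 each), a 2.02-fold range. A dimmer probeset of SLC10A2 had an unadjusted litter p of 0.721 (r = 0.49 with the first, limma). Adjusted p-values of these 12 members lay between 0.0984 and 0.208, and 5 of the 12 had an unadjusted p under 0.05 without every litter in turn.

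**Figure D4:**
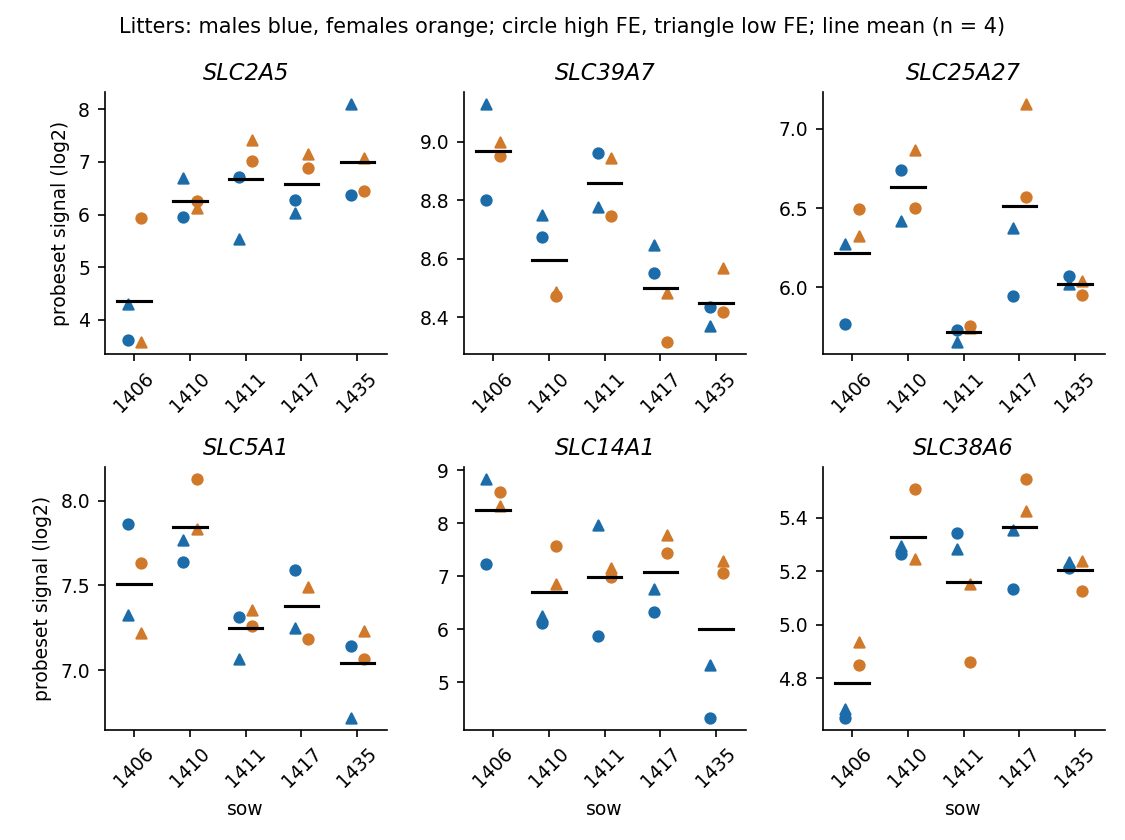
Probeset signal (y axis, log2) of the 6 members with the smallest litter p in the 4 pigs of each sow (x axis), males blue and females orange, circles high FE and triangles low FE, with the litter mean as a line (n = 4). SLC2A5 is low in 3 of the 4 pigs of sow 1406, SLC5A1 is highest in litter 1410, and SLC14A1 is spread over about 3 log2 units in litter 1435.

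Litter and the pigs' identification numbers were tied, and the litter result moved with both. With the pig number in the model 13 members had an unadjusted litter p under 0.05, and with the first principal component 13 did, against 25 without either. Of the 12 named members, 6 had an unadjusted p under 0.05 with each covariate (SLC2A5, SLC39A7, SLC25A27, SLC5A1, SLC14A1 and SLC38A6). Of the 25 members called, 10 were highest in litter 1406, with pig numbers 402 to 417, and 12 were lowest in litter 1435, with pig numbers 432 to 440, against 28.7% and 28.9% of all probesets called. The part of pig number in the litter values was not tested further.

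Among cell type markers, those of B cells differed most between litters. All 4 measured B cell markers had an unadjusted p under 0.05 and 1 passed the adjusted test, with summed levels of 8.51 to 9.02 in litter 1406, 8.73 to 9.34 in 1410, 9.89 to 10.79 in 1411, 9.05 to 9.90 in 1417 and 9.23 to 10.37 in 1435. Litters 1406 and 1411 were the extremes of the B cell markers. Litter 1406 was also extreme for SLC2A5, SLC39A7, SLC14A1, SLC25A11, SLC38A6 and SLC10A2. Litter 1411 was extreme for SLC25A27, SLC25A1, SLC25A24, SLC16A13 and SLC44A1. The other extreme was litter 1410 for SLC25A27, litter 1417 for SLC38A6, SLC10A2 and SLC16A13, and litter 1435 for the rest. Of all probesets called at an unadjusted litter p under 0.05, litter 1406 was highest in 28.7% and lowest in 26.2%. For litter 1411 these shares were 17.7% and 19.1%. Summed colonocyte markers ran from 12.76 to 12.82 in litter 1411 and from 12.97 to 13.23 in litter 1410, the litter highest for SLC5A1. In litter 1435, the lowest for SLC5A1, they ran from 12.825 to 13.196, overlapping those of litter 1410. Litter 1406 ran from 12.85 to 13.03 and litter 1417 from 12.80 to 13.20. The brightest colonocyte marker, KRT20 (mean 12.06), weighed most in these sums. With all markers weighted alike, mean deviations were -0.17 in litter 1417, -0.08 in 1411, -0.02 in 1406, 0.11 in 1435 and 0.15 in 1410. The part of these cells in the carriers' values was not tested.

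Males and females were compared within litters and FE groups. No member passed the adjusted test in limma, and 0 of 23837 probesets (0%) did. At the unadjusted level 9 of 190 members were called (4.74%), against 4.29% of all probesets, 4 with higher means in males (2.11%, against 2.61% of all probesets) and 5 with lower means (2.63%, against 1.69%).

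The urea channel SLC14A1 averaged 6.50 ± 1.29 in males and 7.50 ± 0.58 in females (SD, n = 10 each), a log2 difference of -1.0 ± 0.28 (SE, unadjusted p = 0.00244). The male was above the female of the same litter and FE group in 2 of 10 pairs. Males ranged between 4.33 and 8.83 and females between 6.86 and 8.60, so the female values lay inside the male range. A second, dimmer probeset followed the first (r = 0.89) and gave -1.14, and without litter 1435 the log2 difference of the brighter one was -0.67.

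Of the 4 members with higher male means, the anion exchanger SLC26A7 was too dim to be read as a difference, at 2.64 ± 0.80 in males and 1.53 ± 0.54 in females (SD, n = 10 each). The female mean was under the filter bound of 1.62, so the probeset had passed the filter only through its male signal, and its other probeset had a correlation of only 0.10 with it. The other members with higher male means were the sodium bicarbonate carrier family member SLC4A10 (0.22 ± 0.08), the vesicular GABA carrier SLC32A1 (0.30 ± 0.11), SLC36A3 (0.21 ± 0.09) and, just outside the threshold, SLC25A34 (0.18 ± 0.09). A dimmer probeset of SLC32A1 gave a log2 difference of 0.05 (unadjusted p = 0.687, limma) and had a correlation of 0.25 with the first. Both SLC4A10 and SLC36A3 had means under 3 in both sexes.

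Lower male means were seen for the glycine carrier SLC6A9, at 7.38 ± 0.35 in males and 7.74 ± 0.26 in females (log2 difference -0.35 ± 0.14, SE). The X-linked creatine carrier SLC6A8 averaged 9.16 ± 0.19 in males and 9.36 ± 0.17 in females (-0.20 ± 0.09), and the male was above in 2 of 10 pairs. SLC22A16 and SLC25A27 had log2 differences of -0.70 ± 0.32 and -0.24 ± 0.11. Adjusted p-values of these 10 members were all 0.9999 (limma).

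**Figure D5:**
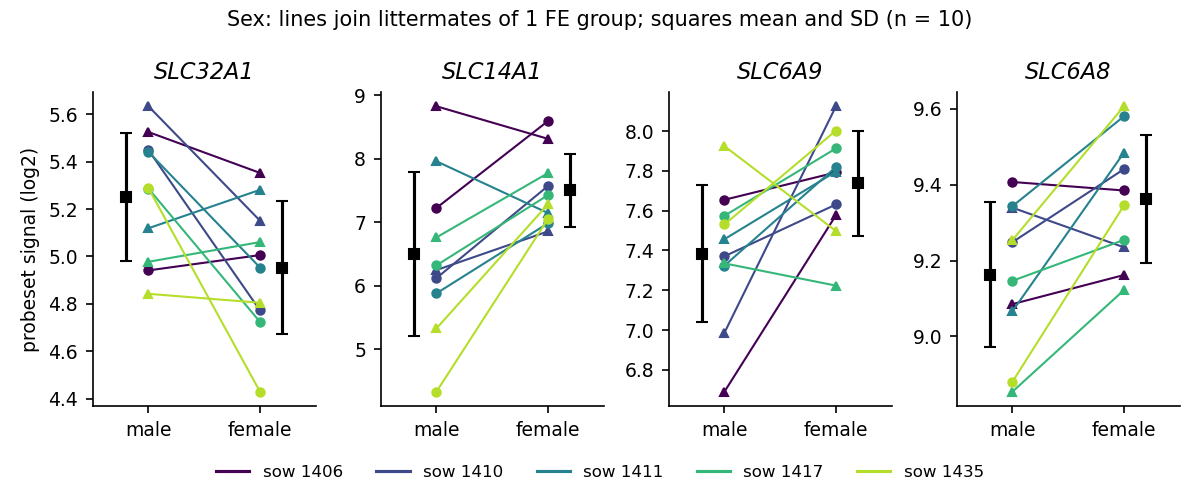
Probeset signal (y axis, log2) in males and females (x axis) for 4 of the members named for sex, SLC32A1, SLC14A1, SLC6A9 and SLC6A8; lines coloured by sow join littermates of the same FE group (10 pairs, circles high FE and triangles low FE), and squares give the mean and SD (n = 10). SLC32A1 is higher in the male of 7 of 10 pairs, and SLC14A1, SLC6A9 and SLC6A8 each in the male of 2 of 10 pairs.

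Whether the feed efficiency difference differed between sexes was tested as an interaction. No member passed the adjusted test (0% of 23140 probesets did), and 6 of 186 were called at the unadjusted level (3.23%), against 4.11% of all probesets. In 4 of them the interaction was above 0 (2.15%, against 2.04% of all probesets) and in 2 below 0 (1.08%, against 2.07%). The copper carrier family member SLC31A2 had an interaction of 0.78 ± 0.25 (SE, unadjusted p = 0.00635, limma). In male pairs its high minus low FE difference was 0.37 ± 0.41, with 4 of 5 above 0, and in female pairs -0.41 ± 0.28, with 0 of 5 above 0 (SD, n = 5 pairs each).

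The intracellular nucleoside carrier SLC29A3 had an interaction of 0.78 ± 0.26, from 0.51 ± 0.57 in male pairs and -0.27 ± 0.41 in female pairs (SD, n = 5 pairs each). The ADP/ATP exchanger SLC25A4 had one of 0.46 ± 0.21, and the fourth member called above 0 was SLC17A5 (0.41 ± 0.19). Called below 0 were the thiazide-sensitive sodium chloride cotransporter SLC12A3 (-0.53 ± 0.20) and the zinc carrier SLC30A4 (-0.51 ± 0.23), and just outside the threshold was the dim amino acid carrier SLC6A15 (-0.38 ± 0.20, unadjusted p = 0.0719). The adjusted p was 0.999 for each of these members (limma).

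SLC14A1 did not enter the interaction test because of the filter on SD. Its high minus low FE difference was -1.05 ± 0.81 in male pairs, with 0 of 5 above 0, and 0.05 ± 0.44 in female pairs, with 2 of 5 above 0 (SD, n = 5 pairs each). Without that filter the interaction was -1.1 ± 0.50 (SE, unadjusted p = 0.0444, adjusted p = 0.999, limma).

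Partners and neighbours of the carriers were read from a list of 32 genes outside the family, of which 21 were measured. These were ABC exporters, organic anion carriers of the SLCO family, sodium pump subunits, mitochondrial porins and chaperones of carriers. Of 19 tested for feed efficiency 8 had higher means in high FE pigs and 0 were called at the unadjusted level, with a median of -0.03, against 0.00 over all probesets. For 4 of the 21 the unadjusted litter p was under 0.05, namely for the exporters ABCC1 and ABCG2, the chaperone NPTN and the prostaglandin carrier SLCO2A1, against 16.1% of all probesets. For 2 of the 21 the unadjusted sex p was under 0.05 (ABCC4 and FXYD3), against 4.29% of all probesets. BSG, which brings monocarboxylate carriers to the membrane, had means of 9.45 in high FE and 9.44 in low FE pigs.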

How the data were processed

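Porcine caecal mucosa RNA was hybridised to Affymetrix arrays, 1 per pig. The authors deposited log2 values, 1 per probeset, after RMA background correction, quantile normalisation and summarisation with a custom probe layout on Sscrofa11.1; the labels name GCOS 1.1.1. RMA evens out total signal between arrays, so only relative differences remain. No values were held by 22753 listed probesets. Gene symbols came from the platform annotation, which is older than that layout, and positions from RefSeq. Members, lists and classes were chosen with earlier results of these data known.

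Values were used as deposited. Probesets with a mean under the 5% quantile (1.62) were removed, leaving 23837, and for feed efficiency and its interaction also those whose SD exceeded its 95% quantile among high and among low FE pigs, leaving 23140. limma 3.58.1 (R 4.3.3) fitted feed efficiency with sow, litter (F test) with feed efficiency and sex, sex with sow and feed efficiency, and the interaction with sow. Tests were two-sided, with Benjamini-Hochberg adjustment over all probesets tested and a threshold of 0.05. The 4 pigs of a litter and the 10 of a group are separate animals. The number of arrays limits the precision. Fits were tested on simulated data. Figures were drawn with matplotlib 3.10.9.

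Named genes were the 2 brightest per class, the 8 smallest p-values in each direction for feed efficiency, 12 for litter, 5 in each direction for sex and 3 for the interaction, the 6 largest SDs within litters, and intestinal carriers listed by role. Alternatives were other filters, the mean of a gene's probesets, centred arrays, trended robust variances, other covariates, a pair block, and leaving out each pig or litter. Slaughter batch and sequences were not used here.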

Additional observations from a re-analysis of the deposited data

Results flagged for a closer look

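Single pigs that stood apart were sought in 134 groups of pigs for the named members, and 7 were found. Chance alone gives about 1 in 20 groups, so 7 of 134 is close to that rate. In high FE pigs the potassium chloride cotransporter SLC12A7 was lowest at 7.221, in a male of sow 1435, while the other 9 lay between 7.56 and 7.95. For SLC25A26 the lowest low FE pig, also a male of sow 1435, stood at 5.449, against 5.90 to 6.29 in the others. The highest high FE pig for the glucose carrier SLC2A4 was a male of sow 1406 at 5.483, with the others between 4.57 and 5.06.

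The other 4 were found within litters. SLC25A1 was at 6.92 in the low FE female of sow 1417, against 7.20 to 7.26 in that female's littermates. SLC25A24 was at 9.028 in the low FE male of sow 1410, against 8.55 to 8.62, and SLC16A13 was at 5.365 in the low FE male of sow 1406, against 5.01 to 5.07. The bile acid carrier SLC10A2 was at 4.52 in the high FE female of sow 1410, against 5.05 to 5.12 in the littermates.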

How the results depend on the processing

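The count of members at an adjusted p under 0.05 was 0 for feed efficiency, sex and the interaction under every alternative run. For litter it was 2 where only probesets at or above the array median were tested (SLC2A5 and SLC39A7, adjusted p = 0.0454 and 0.0436, limma). Without each pig in turn it was 0 to 1, the 1 being SLC2A5 without high FE replicate 5, and without each litter 0 to 0. At the unadjusted level, feed efficiency gave 7 members, and 13 with the pair of a sow and sex as a block, 7 of them shared. Without 1 pig it gave 4 to 11 (11 without low FE replicates 1, 5 or 9 or high FE replicate 9, and 4 without low FE replicates 4 or 6), and without 1 litter 5 to 15 (15 without sow 1435). The litter test gave 25, and 13 with the pig number and 13 with the first principal component, 21 to 32 without 1 pig and 22 to 31 without 1 litter. Sex gave 9, and 5 among the brighter probesets, where 110 members were tested, 6 to 13 without 1 pig and 6 to 12 without 1 litter. The interaction gave 6, 3 to 9 without 1 pig (3 without low FE replicate 7) and 2 to 10 without 1 litter (10 without sow 1406, 3 without 1411 and 2 without 1417). The cause of these moves was not tested. Of 1487 values of named members under alternatives, 1484 kept their side of the adjusted threshold, and 3 litter values passed it. Differences by feed efficiency, sex and interaction reversed in 0 of these values, whereas litter values carry no direction. Main adjusted p-values of named members outside the litter test were about 0.980 or higher (limma), so keeping the side says little about their stability. No paired analysis by replicate number was possible because the labels carry no shared replicate numbers, only sow and sex.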
